A study of Mus musculus with 12 samples.

Results

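The RFX genes encode 8 transcription factors, Rfx1 to Rfx8, and all 8 were measured among 19946 genes on 12 arrays of whole mouse testis. The 8 were taken as a gene family by name, and the family was selected from earlier results of these arrays because Rfx8 was higher in the stage group XII-I than in the other groups. That comparison of Rfx8 is therefore given below as a description, with no test. Each of the 8 genes had 1 probe set, so no choice among probe sets entered their values.

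RFX proteins bind DNA through a winged helix domain, at a palindromic element called the X box. In many tissues Rfx1, Rfx2 and Rfx3 switch on genes of cilia, and in the testis Rfx2 is needed for round spermatids to mature and grow a flagellum, which is a modified motile cilium. Other members are known mainly from elsewhere: Rfx4 from the developing brain, Rfx5 from the immune system, where it drives the major histocompatibility complex (MHC) class II genes, and Rfx6 from the endocrine pancreas. Rfx7 and Rfx8 are less studied.

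The samples were adult testes of male mice of a mixed 129 and C57BL6 background, 2 in each of 6 stage groups of the cycle of the seminiferous epithelium. In order these were XII-I, then II-IV and IV-VI, then VII, and last VIII-IX and IX-XI. Every mouse, in all 6 groups, had been given WIN 18,446, an inhibitor of retinoic acid synthesis, at 100 ug per g each day for 7 days, from 2 to 8 days after birth. An injection of 200 ug of retinoic acid (RA) followed at 9 days, and testes were taken after a further 43 to 49 days. That treatment brings most tubules of a testis to neighbouring stages, and the labels list no untreated or unsynchronized group. The labels do not say that the 2 samples of a group are separate animals, so the p-values, which pool the spread within all 6 groups, may measure only technical variation.

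Array medians lay between 296.9 and 309.1 intensity units. The arrays followed the cycle but did not fall into 6 tight groups: 9 of the 12 were closest, by correlation across genes, to an array of another group. XII-I sample 2 and II-IV sample 2 were the closest such pair, both VIII-IX samples were closest to IX-XI sample 1, and IX-XI sample 1 was closest to VIII-IX sample 1. Of 30 measured germ cell markers 25 lay above the median intensity of all genes, as did 4 of 6 Sertoli cell markers and 1 of 7 markers of the epididymis and efferent ducts. Levels below are given on the log2 scale of intensity, each mean with the SD of its 2 samples. A probe set's intensity depends on its probes, so levels are compared within a gene and not between genes. In whole testis RNA, fewer cells of a type and less RNA per cell cannot be told apart.

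Rfx8 (probe set 10354216) had the widest range of the family over the cycle. It read 10.55 and 10.34 in XII-I, 9.51 and 10.27 in II-IV, 8.80 and 9.44 in IV-VI, 8.62 and 8.38 in VII, 9.07 and 9.47 in VIII-IX, and 9.00 and 8.68 in IX-XI. Both XII-I arrays were above the other 10, II-IV sample 2 came close to them, and both VII arrays were below the other 10. The group means ran in the order XII-I (10.44 ± 0.15, SD, n = 2), II-IV (9.89 ± 0.54), VIII-IX (9.27 ± 0.28), IV-VI (9.12 ± 0.45), IX-XI (8.84 ± 0.23) and VII (8.50 ± 0.17). The arrays of VIII-IX overlapped those of IV-VI, and those of IV-VI overlapped those of IX-XI, while the other neighbours in this order did not overlap. XII-I was 3.85-fold above VII.

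The values that chose the family were those of Rfx8 in XII-I, where its mean lay 1.32 log2, or 2.50-fold, over that of the other 5 groups as a whole. The next member in that comparison was Rfx2, at 0.17 log2. The other 6 members were below the mean of the other 5 groups in XII-I, from -0.05 log2 for Rfx3 to -0.58 log2 for Rfx6. XII-I was not the lowest group for Rfx3, Rfx5 or Rfx6. Of all genes, 10.8% passed in the comparison of XII-I with the other 5 groups, and nothing is read from that share for Rfx8.

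Away from XII-I, Rfx8 could be tested. Among the 5 groups from II-IV to IX-XI its means spanned 1.39 log2, or 2.63-fold, and in limma's moderated F test of those 5 groups it did not pass, with adjusted p = 0.0591 (Benjamini-Hochberg over all genes). It had adjusted p = 0.0315 without II-IV sample 1 and 0.135 without II-IV sample 2, and passed in 3 of the 23 alternatives. From VII to VIII-IX it differed by 0.77 ± 0.28 log2 (SE, n = 2 against 2), with every VIII-IX array above every VII array, and did not pass in limma (adjusted p = 0.127).

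**Figure D1:**
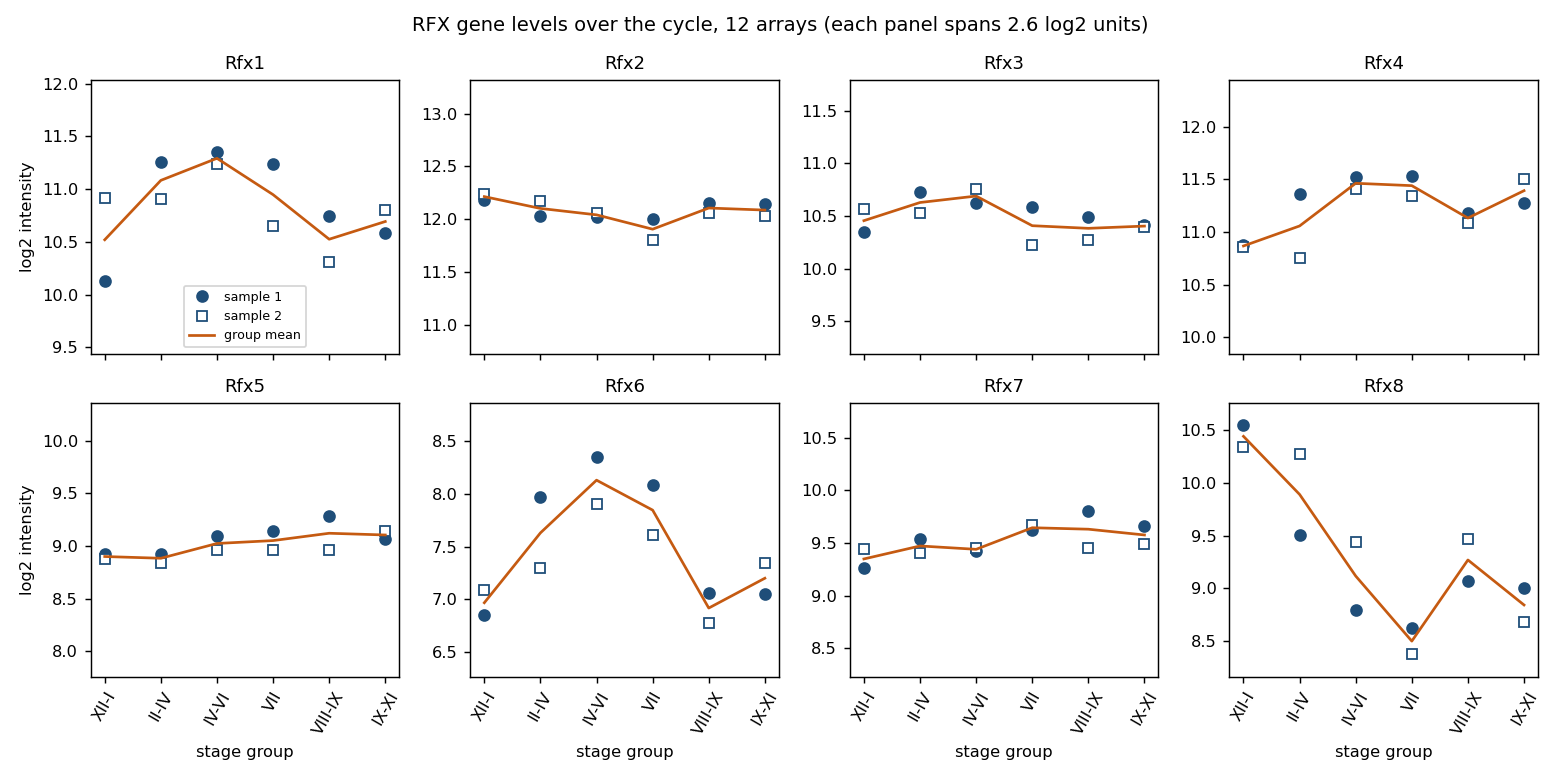
Levels of the 8 RFX genes (log2 intensity, vertical axis) in the 6 stage groups in the order of the cycle (horizontal axis). Filled circles are sample 1, open squares sample 2 and lines join group means. Every panel spans the same height, so Rfx8 and Rfx6 show the widest swings, with Rfx8 from 10.44 in XII-I to 8.50 in VII.

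The Rfx8 promoter, the window from 250 bases before to 50 bases after the RefSeq gene start on the minus strand (GRCm38.p6, chr1:39720940-39721239), is shown because Rfx8 had the widest range. It was searched on both strands for GTTGCC and GTTACC, common forms of 1 arm of the X box, and held neither, so it is printed in lower case throughout.
Rfx8: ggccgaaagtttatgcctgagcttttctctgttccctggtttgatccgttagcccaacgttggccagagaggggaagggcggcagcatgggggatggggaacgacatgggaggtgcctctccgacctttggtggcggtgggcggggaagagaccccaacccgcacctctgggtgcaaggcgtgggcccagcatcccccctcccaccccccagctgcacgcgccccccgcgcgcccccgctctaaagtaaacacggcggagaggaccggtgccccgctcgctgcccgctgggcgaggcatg

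Rfx8 was set aside in the test over the whole cycle, because its values in XII-I chose the family. Among Rfx1 to Rfx7, Rfx6 (probe set 10363090) was the member that passed that test. It read 6.85 and 7.09 in XII-I, 7.97 and 7.29 in II-IV, 8.36 and 7.91 in IV-VI, 8.09 and 7.61 in VII, 7.06 and 6.78 in VIII-IX, and 7.05 and 7.35 in IX-XI. All arrays of IV-VI and VII lay above all those of XII-I, VIII-IX and IX-XI, and II-IV spanned the gap. The mean was highest in IV-VI (8.13 ± 0.32, SD, n = 2), followed by VII (7.85 ± 0.34), II-IV (7.63 ± 0.48), IX-XI (7.20 ± 0.21), XII-I (6.97 ± 0.17) and VIII-IX (6.92 ± 0.20), and neighbours in this order overlapped throughout. IV-VI was 2.32-fold above VIII-IX. In limma's F test over the 6 groups Rfx6 had adjusted p = 0.0338, and over the 5 groups without XII-I adjusted p = 0.0520. The latter lay between 0.0291 and 0.255 in the alternatives and passed in 7 of 22.

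The Rfx6 call over 6 groups held in 14 of the 22 alternatives in which it could be fitted, and in 5 of the 12 analyses that left out 1 array. It was lost without XII-I sample 1 (adjusted p = 0.0662), IV-VI sample 1 (0.0922), IV-VI sample 2 (0.0576), VIII-IX sample 1 (0.0649), VIII-IX sample 2 (0.0788), IX-XI sample 1 (0.0652) or IX-XI sample 2 (0.0590). IV-VI had the highest mean in all 22, and VIII-IX the lowest in 18, with XII-I the lowest in the other 4. Rfx6 was a dim probe set, at percentile 29.3 of all genes by mean intensity, and so fell among the dimmest 30% that another alternative left out.

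In single comparisons of Rfx6 the widest step was that between VII and VIII-IX, and none of the comparisons passed in the fit of all 12 arrays with equal weights. The step from VII to VIII-IX was -0.93 ± 0.25 log2 (SE, n = 2 against 2), with no overlap between the arrays and adjusted p = 0.0658 in limma. IV-VI against the other 5 groups was 0.82 ± 0.20 log2 (adjusted p = 0.0838), and VIII-IX against the other 5 was -0.64 ± 0.20 log2 (adjusted p = 0.0801). Without II-IV sample 1 the step had adjusted p = 0.0387 and the IV-VI difference, at 0.89 log2, adjusted p = 0.0288. Without II-IV sample 2 the step had the same adjusted p, the VIII-IX difference, at -0.71 log2, passed at 0.0349, and XII-I against the other 5, at -0.64 log2, at 0.0344. Without XII-I sample 2 the IV-VI difference was 0.84 log2. Leaving out IV-VI sample 1 made it 0.59 log2, and leaving out IV-VI sample 2 made it 1.04 log2, so its size depended on the IV-VI array kept. With array quality weights it was 0.82 log2 (adjusted p = 0.0147 in limma). It did not pass in limma with the replicate block (adjusted p = 0.0851) or with quantile normalization repeated (0.0893).

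Over the members as a whole, Rfx6 was the 1 gene of the 7 tested, Rfx1 to Rfx7, that passed the F test over 6 groups, where 19.9% of all genes passed. Of the 8 members tested over the 5 groups without XII-I, 0 passed at the adjusted threshold in limma, while Rfx6 and Rfx8 were the 2 with an unadjusted p below 0.05. The share of all genes passing that test was 11.4%. These shares are near or below the background. The median range of Rfx1 to Rfx7 was 0.309 log2, against 0.341 log2 for all genes; with Rfx8, which was selected for its values, it was 0.452 log2.

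**Figure D2:**
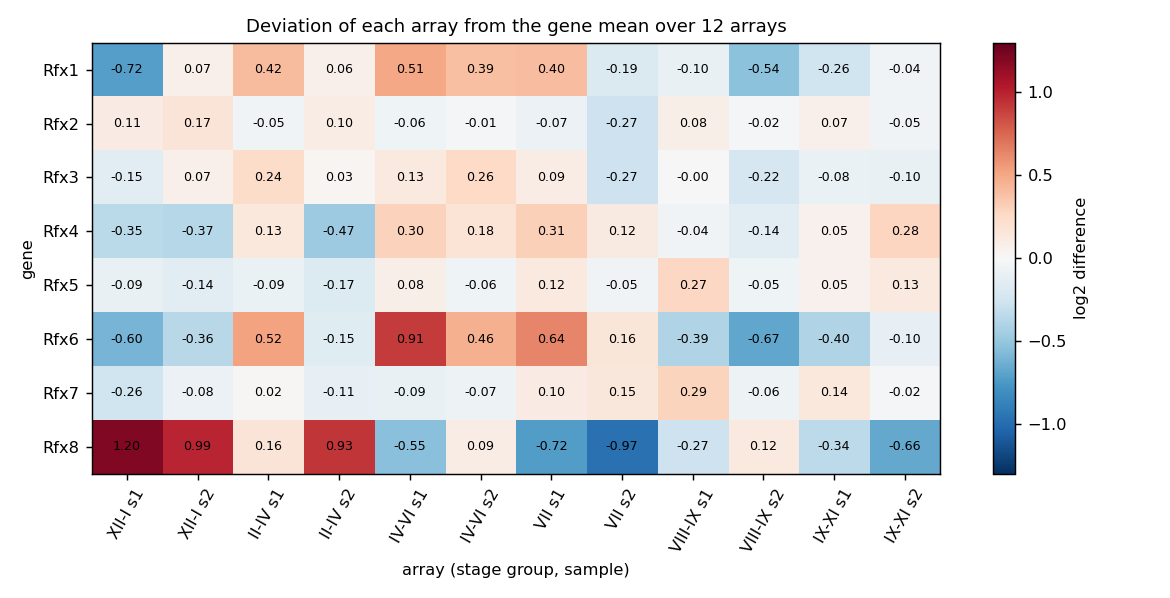
Log2 difference of each array from the gene's own mean over the 12 arrays (colour and printed value), with genes as rows and arrays as columns, s1 and s2 being samples 1 and 2. Rfx8 stands 1.20 and 0.99 above its mean in XII-I and 0.93 in II-IV sample 2, while Rfx2, Rfx3, Rfx5 and Rfx7 stay within 0.29 of theirs.

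Rfx2, Rfx1 and Rfx3 are the closely related members with known roles in cilia. Rfx2 (probe set 10452151) read 12.19 and 12.24 in XII-I, 12.03 and 12.18 in II-IV, 12.02 and 12.06 in IV-VI, 12.005 and 11.81 in VII, 12.16 and 12.05 in VIII-IX, and 12.15 and 12.03 in IX-XI. It was bright on every array, at percentile 96.6 of all genes by mean intensity, and its means spanned 0.31 log2, or 1.24-fold, from XII-I (12.21 ± 0.04, SD, n = 2) to VII (11.90 ± 0.14). Both XII-I arrays lay above the other 10 and both VII arrays below them, which is also where Rfx8 had its highest and lowest arrays. Rfx2 did not pass the F test in limma (adjusted p = 0.312), nor did VII against the other 5 groups (-0.20 ± 0.08 log2, SE, adjusted p = 0.194).

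Rfx1 (probe set 10573295) read 10.13 and 10.91 in XII-I, 11.26 and 10.91 in II-IV, 11.35 and 11.24 in IV-VI, 11.24 and 10.65 in VII, 10.74 and 10.31 in VIII-IX, and 10.59 and 10.80 in IX-XI. Its means spanned 0.77 log2, or 1.71-fold, from IV-VI (11.29 ± 0.08, SD, n = 2) to XII-I (10.52 ± 0.55), and the 2 XII-I arrays differed by as much as that span. Rfx1 did not pass the F test in limma (adjusted p = 0.225). The IV-VI difference of 0.54 ± 0.22 log2 (SE) from the other 5 groups had adjusted p = 0.197, and 0.0456 with array quality weights.

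Rfx3 (probe set 10466865) had its highest mean in IV-VI, at 10.69 ± 0.10 (SD, n = 2), and its lowest in VIII-IX, at 10.38 ± 0.16. It read 10.62 and 10.76 in IV-VI, 10.73 and 10.53 in II-IV, 10.35 and 10.56 in XII-I, 10.59 and 10.23 in VII, 10.49 and 10.27 in VIII-IX, and 10.41 and 10.40 in IX-XI. The arrays of each group overlapped those of the next in order, and the F test gave adjusted p = 0.405 in limma.

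The promoters of Rfx1, Rfx2 and Rfx3 share a sequence feature, which is shown here because these members are a close subgroup. They are bright on the arrays, as is Rfx4 (percentile 90.3 of all genes by mean intensity), which lacks the feature. RefSeq promoter windows of GRCm38.p6 matched all 8 members with 9 windows, Rfx4 having 2. GTTGCC, on either strand, was in 4 of them, those of Rfx1, Rfx2, Rfx3 and Rfx6, and in 12.5% of all 32851 windows of the same length. GTTACC was in 3, those of Rfx2, Rfx5 and the downstream window of Rfx4, and in 7.21% of all windows. In Rfx1, Rfx2 and Rfx3 the GTTGCC is preceded, after 1 base of any kind, by GNAAC, so that both arms of an X box lie back to back. This arrangement, searched on both strands and chosen after the promoters were read, was in 0.0761% of all windows, 25 in number including these 3. The usual order, GTTGCC followed after 2 bases by GGNAAC, was in 0.298% of windows and in 0 of the members'. That search required a longer second arm, GGNAAC against GNAAC, and other spacings were not searched. The shares of the 2 arrangements are therefore not comparable. Both arrangements contain GTTGCC and overlap with that search. The stretches read as follows, with GTTGCC or GTTACC and any back-to-back arm in capitals, all 5′ to 3′ on the gene's strand. They lie at chr8:84066807-84066866 (plus strand) for Rfx1, chr17:56831095-56831155 (minus) for Rfx2, chr19:28011117-28011165 (minus) for Rfx3 and chr10:51685511-51685564 (plus) for Rfx6.
Rfx1: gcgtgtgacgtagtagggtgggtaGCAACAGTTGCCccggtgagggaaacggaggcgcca
Rfx2: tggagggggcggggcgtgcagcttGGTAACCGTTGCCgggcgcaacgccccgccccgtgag
Rfx3: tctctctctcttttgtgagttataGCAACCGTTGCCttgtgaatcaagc
Rfx6: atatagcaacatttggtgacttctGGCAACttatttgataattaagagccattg

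A match describes the letters in these windows and not binding. Among the 4 genes with GTTGCC, Rfx1, Rfx3 and Rfx6 had their highest mean in IV-VI and Rfx2 in XII-I. Counted from the gene start, the first capital lies at -5 in Rfx1 and at -123 in Rfx2. The Rfx6 window is poor in CG dinucleotides, with 2, against a median of 7 over all windows, 23 in Rfx8 and 38 in Rfx2.

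Rfx4 (probe set 10365384) was lowest in XII-I, where it read 10.88 and 10.86. It read 11.36 and 10.76 in II-IV, 11.52 and 11.41 in IV-VI, 11.54 and 11.35 in VII, 11.18 and 11.08 in VIII-IX, and 11.28 and 11.51 in IX-XI. The XII-I arrays lay below all others but II-IV sample 2, which was the lowest of all. The means spanned 1.51-fold, from IV-VI (11.46 ± 0.08, SD, n = 2) to XII-I (10.87 ± 0.02). With all 12 arrays the F test gave adjusted p = 0.115 in limma, XII-I against the other 5 groups -0.43 ± 0.14 log2 (SE, adjusted p = 0.0739), and the step from IX-XI to XII-I -0.52 ± 0.18 log2 (adjusted p = 0.0853). These calls turned on the II-IV arrays, which differed most. Leaving out either removes that spread, and the lone II-IV array is then assumed to vary like the other groups. Without II-IV sample 1 the F test gave adjusted p = 0.0158, the XII-I difference was -0.37 log2 (adjusted p = 0.0357), and the F test over 5 groups also passed (adjusted p = 0.0375). Without II-IV sample 2 the F test gave adjusted p = 0.0278 and the XII-I difference was -0.49 log2 (adjusted p = 0.00977). The step passed in both, with adjusted p = 0.0195.

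Rfx5 and Rfx7, related members that lack the dimerization domain of the others, had narrow ranges and did not pass. Rfx5 (probe set 10494122) read 8.92 and 8.88 in XII-I, 8.93 and 8.84 in II-IV, 9.09 and 8.96 in IV-VI, 9.14 and 8.97 in VII, 9.28 and 8.96 in VIII-IX, and 9.07 and 9.14 in IX-XI. The 4 arrays of XII-I and II-IV were the lowest, though the means spanned only 1.18-fold and the F test in limma gave adjusted p = 0.467. Rfx7 (probe set 10586920) read 9.26 and 9.44 in XII-I, 9.53 and 9.41 in II-IV, 9.43 and 9.45 in IV-VI, 9.62 and 9.67 in VII, 9.80 and 9.45 in VIII-IX, and 9.66 and 9.49 in IX-XI. Its means spanned 1.23-fold, from VII to XII-I, groups next to each other in the order of their means overlapped, and the F test gave adjusted p = 0.388.

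By highest mean, 4 of the 8 members peaked in IV-VI (Rfx1, Rfx3, Rfx4 and Rfx6), 2 in XII-I (Rfx2 and Rfx8), 1 in VII (Rfx7) and 1 in VIII-IX (Rfx5). Of all genes, 12.8% peaked in IV-VI and 22.6% in XII-I. Apart from Rfx6, Rfx1 to Rfx7 did not pass the F test over 6 groups, and Rfx8 was selected for its values in XII-I. The arrays of the highest and the next group overlapped for all members but Rfx2 and Rfx8. The highest mean led by only 0.061 log2 in Rfx3, 0.023 in Rfx4, 0.016 in Rfx5 and 0.014 in Rfx7. Nothing is therefore read from these counts. Rfx1, Rfx4 and Rfx7 were lowest in XII-I, where Rfx8 was highest, though Rfx1 was only 0.005 log2 lower there than in VIII-IX.

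**Figure D3:**
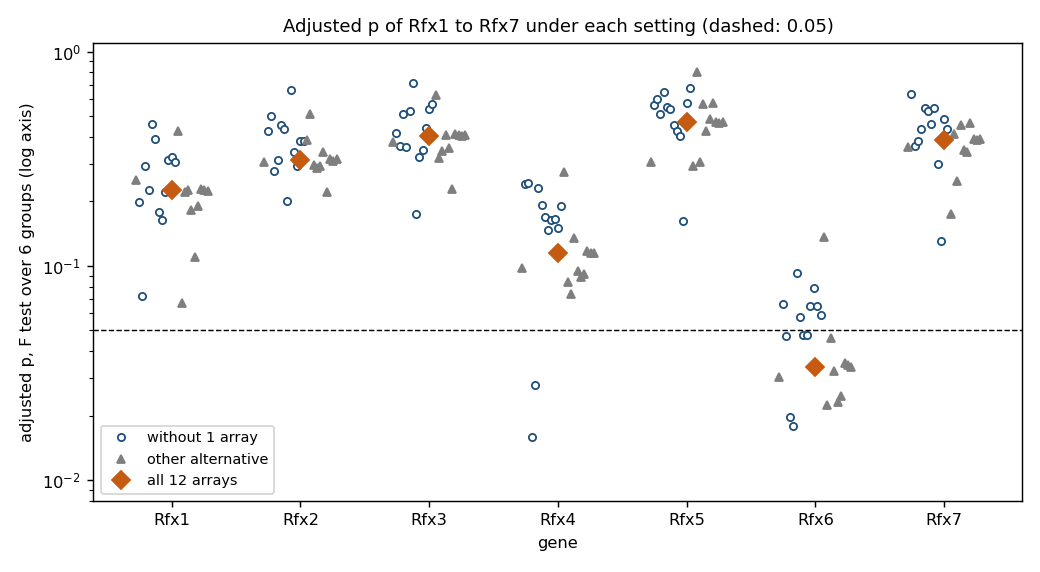
Adjusted p of the F test over 6 groups (vertical log axis) for Rfx1 to Rfx7 (horizontal axis). Diamonds use all 12 arrays, open circles leave out 1 array each, triangles are the other alternatives, and the dashed line marks 0.05. Rfx6 sits at 0.0338 with circles on both sides of the line, Rfx4 crosses it without either II-IV array, and the other 5 genes stay above it.

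In the tests of neighbouring steps, 0 of 7 members passed from IX-XI to XII-I, where 12% of all genes did, and 0 of 8 from VII to VIII-IX, where 3.93% did. Unadjusted p was under 0.05 in limma for 1 member at the first step and 2 at the second. At the other 4 steps 0% of all genes passed. Against the other 5 groups, 0 of the 7 members tested passed in XII-I (10.8% of all genes), VIII-IX (7.84%) or IX-XI (3.69%), with 2, 1 and 0 at an unadjusted p under 0.05. In II-IV, IV-VI and VII 0% of all genes passed, and 0, 2 and 2 members had an unadjusted p under 0.05.

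Genes that work with the RFX proteins were counted from lists, the first of which mixes them with other germ cell regulators. Of 16 measured RFX partners and germ cell regulators, 4 (25%) passed the F test over 6 groups, near the 19.9% of all genes. Foxj1, the main switch of motile cilia and a partner of RFX proteins, was 2.69-fold higher in IV-VI (10.26 ± 0.23, SD, n = 2) than in VIII-IX (8.83 ± 0.03), with adjusted p = 0.0142 in limma. H1f6, the testis linker histone H1t, whose promoter holds a known RFX site, was lowest in XII-I and 2.43-fold higher in VII (11.29 ± 0.11), with adjusted p = 0.0434. Ccno, a cyclin-like protein needed for multiciliated cells, was highest in XII-I and ranged 1.68-fold. The fourth, Sox30, a regulator of spermatid genes named here after its values were seen, was lowest in XII-I and ranged 1.44-fold. Mybl1, the meiotic factor A-MYB, was also named after its values were seen and did not pass (adjusted p = 0.0571).

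Genes of cilia, many of them targets of RFX proteins in other tissues, were counted in the same way. In the cilium assembly list 15 of 40 genes (37.5%) passed the F test over 6 groups, and in the motile cilium and axoneme list 16 of 25 (64%), against the 19.9% of all genes. The 19.9% includes dim genes, while most genes of these lists were bright. With the dimmest 30% of genes left out, 29.6% of the remaining 13962 passed, and the lists were not recounted in that setting. The 16 axoneme genes had their highest mean in XII-I (9), IV-VI (5) or II-IV (2), and the 15 assembly genes in XII-I (6), II-IV (6), IV-VI (2) or VIII-IX (1). The median range was 0.507 log2 for cilium assembly and 0.581 log2 for the axoneme, against 0.341 log2 for all genes. Against the other 5 groups, 9 axoneme genes rose in XII-I and 0 fell, and 6 assembly genes rose and 1 fell, while 7.51% of all genes rose there and 3.33% fell. These are descriptions of lists and say nothing of which factor acts on them.

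The 3 axonemal genes with the widest ranges were Dnaic2, Spag6 and Ccdc40. Dnaic2, a dynein intermediate chain, was 7.33-fold higher in XII-I (11.64 ± 0.06, SD, n = 2) than in VII (8.76 ± 0.09). Ccdc40, which sets the axonemal repeat, also peaked in XII-I, at 2.54 times its level in VII. Spag6, a protein of the central apparatus, was 3.73-fold higher in IV-VI (12.52 ± 0.07) than in VIII-IX (10.62 ± 0.41). Among assembly genes, Bbs4, of the complex that moves cargo in cilia, peaked in XII-I, 2.05-fold over VII. Rpgrip1l, of the transition zone, was 2.08-fold higher in IV-VI than in VIII-IX, and Traf3ip1, of intraflagellar transport, peaked in II-IV, 1.92-fold over VIII-IX.

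**Figure D4:**
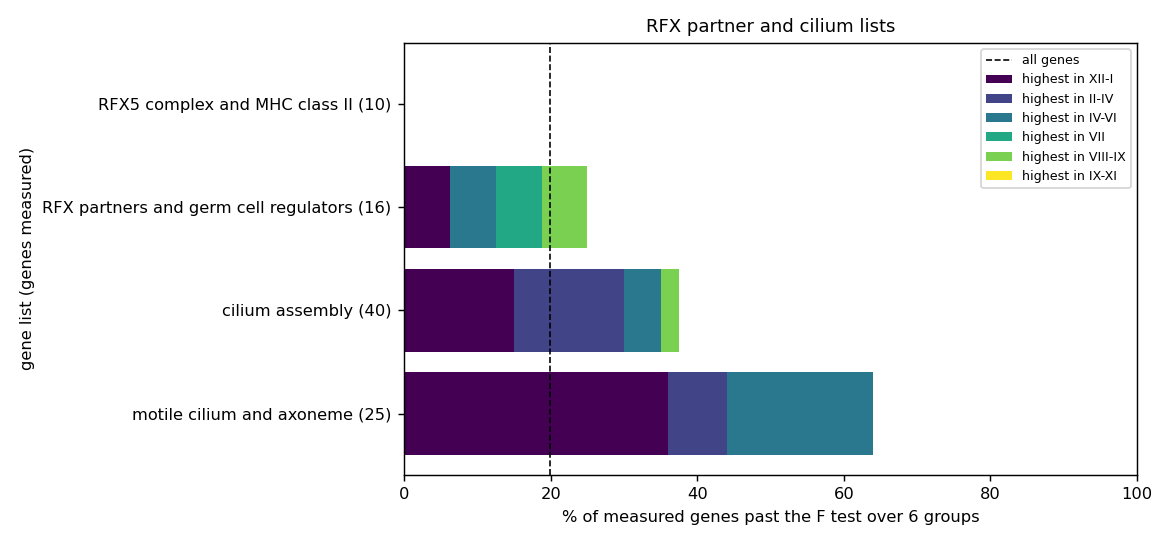
Share of the measured genes of each list that passed the F test over 6 groups (horizontal axis, %), with bars divided by the group of the highest mean and the list size in brackets. The dashed line is the 19.9% of all genes, which the axoneme list exceeds at 64% and the MHC class II list does not reach at 0%.

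The RFX5 list holds its 2 partners Rfxank and Rfxap, the coactivator Ciita and MHC class II genes. Its 10 measured genes gave 0 calls in limma's F test, with 3 of them at an unadjusted p below 0.05. Rfxap ranged 1.43-fold and was lowest in XII-I (adjusted p = 0.106), and Rfxank ranged 1.12-fold (adjusted p = 0.550), both named after their values were seen. The macrophage markers, whose cells express these genes, summed to a log2 level between 11.15 and 12.34 in VII, wider than in any other group.

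**Figure D5:**
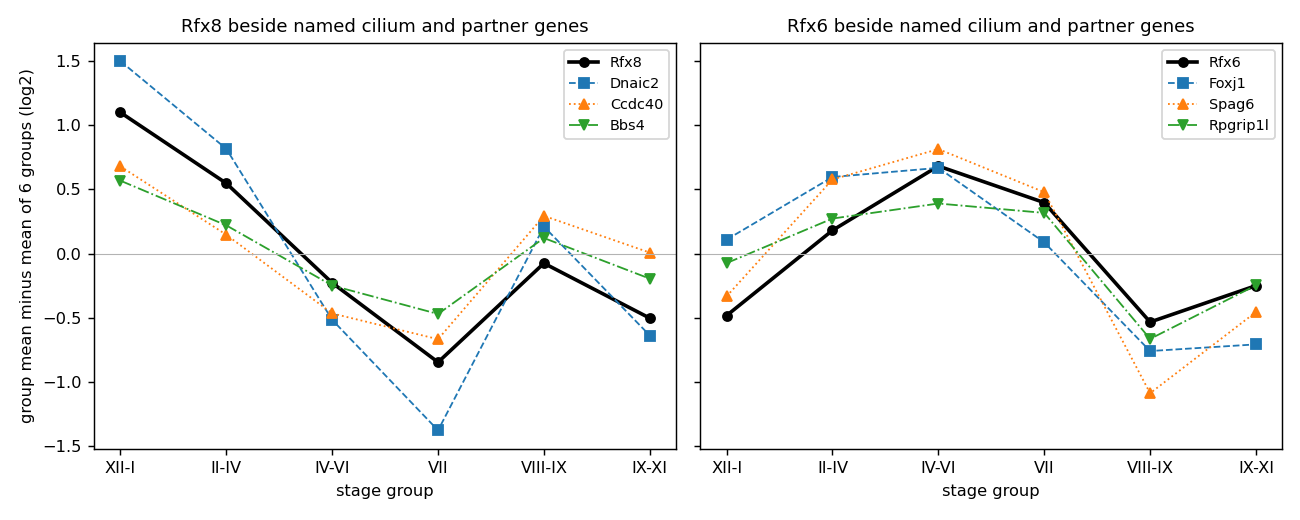
Group means relative to the mean of the 6 groups (log2, vertical axis) over the cycle (horizontal axis). Rfx8 is drawn with Dnaic2, Ccdc40 and Bbs4, which are also highest in XII-I and lowest in VII, and Rfx6 with Foxj1, Spag6 and Rpgrip1l, which are also highest in IV-VI and lowest in VIII-IX; the genes were chosen after their values were seen.

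The genes most like Rfx8 and Rfx6 were taken from those past the F test, by Pearson's r over the 12 arrays, as a description with no test. For Rfx8 they were Reep4 (r = 0.995), Wdr33 (0.994), Pfkm (0.992), Mfn2 (0.991) and Wrn (0.991), all highest in XII-I and lowest in VII. Their ranges ran from 1.60-fold for Mfn2 to 2.92-fold for Wrn, against 3.85-fold for Rfx8. For Rfx6 they were Sars2 (0.987), Dlx6 (0.983), Myt1 (0.982), Snrpb (0.982) and Serpina3b (0.981), all highest in IV-VI. The 12 points share their groups and the normalization of the arrays.

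Markers of germ cell types, which enter the tubules' RNA in different proportions over the cycle, are given beside the RFX values, with the 19.9% of all genes as background for their calls. The log2 sum of 6 pachytene and diplotene markers was highest in XII-I, at 15.08 to 15.20, and lowest in VII, at 14.80 to 14.86, the groups where Rfx8 was highest and lowest. Neither group stood apart: XII-I overlapped VIII-IX (14.995 to 15.09), and VII overlapped IX-XI (14.82 to 14.95). Of the 6 markers, Ccna1 and Pou5f2 passed the F test: Ccna1 was highest in XII-I and lowest in VII, and Pou5f2 highest in VIII-IX and lowest in IV-VI. Adam2, which did not pass, was also highest in XII-I and lowest in VII. Clgn, Hspa2 and Ldhc ranged only 1.08-fold, 1.14-fold and 1.16-fold. Clgn and Hspa2 were highest in XII-I and lowest in IX-XI. Ldhc was highest in VIII-IX and slightly higher in VII (13.47) than in XII-I (13.43), so the markers did not all follow the sum.

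The sum of 6 round spermatid markers was 13.11 to 13.68 in XII-I, 13.79 to 14.59 in II-IV, 14.65 to 14.80 in IV-VI, 14.65 to 14.83 in VII, 13.76 to 14.22 in VIII-IX and 14.22 to 14.57 in IX-XI. It was high in IV-VI and VII, as was Rfx6, and its lowest group was XII-I. Of the 6, Spam1 passed, highest in IV-VI and lowest in VIII-IX, and all 6 had an unadjusted p under 0.05 in limma. Acrv1, Spaca1, Tssk1, Catsper3 and Izumo1 did not pass and were lowest in XII-I. Catsper3 was highest in IV-VI, and Acrv1, Spaca1 and Izumo1 were highest in VII. Tssk1 was highest in IX-XI (12.57) and also high in VIII-IX (12.56), where Rfx6 was low. Of 6 preleptotene and leptotene markers 5 passed, of 6 elongating spermatid markers 2 and of 6 spermatogonial markers 1. The elongating spermatid sum was highest in VIII-IX, at 15.95 to 15.98, and lowest in IV-VI, at 15.37 to 15.47, the groups where Rfx6 was lowest and highest. Its members did not all follow the sum. Tnp1, Tnp2 and Prm1 were highest in VIII-IX and lowest in IV-VI, and Prm2 was highest in VIII-IX and lowest in VII. Odf1 and Gsg1 went the other way, with their highest mean in IV-VI, and each ranged 1.09-fold.

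The sum of 7 epididymis and efferent duct markers, ducts whose lining holds ciliated cells, was higher in IV-VI, at 12.34 to 12.35, than in VIII-IX, at 11.82 to 11.88, with 0 of the 7 past the F test and 1 at an unadjusted p under 0.05 in limma. In that sum Deup1, a protein of centriole amplification, was the 1 gene above the median intensity, and it ranged 1.48-fold from IV-VI to VIII-IX. Lcn5, Lcn8, Defb1, Adam7, Cdhr3 and Spint4 had group means between 5.72 and 6.95, so the sum followed Deup1. Lcn8 and Cdhr3 were also higher in IV-VI than in VIII-IX, while Lcn5, Defb1, Adam7 and Spint4 were slightly lower. The part of these cell types in the RFX values was not tested. Of the Sertoli, Leydig, myoid and endothelial markers 0 passed the F test in limma, with 2 of 6, 1 of 4, 0 of 5 and 1 of 5 at an unadjusted p under 0.05. Of 7 macrophage markers Adgre1 passed, highest in II-IV and lowest in VIII-IX, over a 1.88-fold range. Marker genes past the test are named here after their values were seen.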

How the data were processed

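The authors deposited 1 table of intensity values for 28853 probe sets of Affymetrix Mouse Gene 1.0 ST arrays, per the submitters' processing notes summarized with RMA with version and annotation build not given in the sources used here. From 100 ng of RNA, the labels state, 3.75 ug of amplified cDNA was labelled. The deposited intensity values were linear (24.97 to 21760) and were transformed to log2 with nothing added. RMA makes array distributions alike, so values are relative to other transcripts, and a fold is a ratio of intensities. The number of arrays limits precision.

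Probe sets with 1 gene symbol (21797) were kept, and those with several (1613) or none listed (5443) left out. For the 999 genes with several probe sets, the brightest was used. Symbols were compared with RefSeq genes of GRCm38.p6 by Entrez ID: 0 differed and 91 IDs were not listed. The only coordinates used are those of RefSeq promoter windows.

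One mean per group was fitted to all 12 arrays with limma 3.58.1 in R 4.3.3 (lmFit, eBayes; 6 residual degrees of freedom), with Benjamini-Hochberg adjustment over all genes and a threshold of 0.05. The code was tested on simulated data. Members and lists were chosen with earlier results of these data known. Named list genes are the 3 past the F test whose means ranged most; the 5 genes most like a member exclude predicted genes and olfactory and vomeronasal receptors. Alternatives were array leave-outs, a replicate block, other normalizations, weights, priors, filters and probe set rules. The sample numbers were not taken to pair samples across groups in the main fit. Over 15 pairs of groups, within-group differences had correlations from -0.354 to 0.541, and 7 were over 0.1. These values do not settle whether the samples were paired, and the replicate block is the alternative that allows for it.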

Additional observations from a re-analysis of the deposited data

How the results depend on the processing

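Counts of members were small, so single calls moved them. Over the 12 analyses without 1 array, the members past the F test over 6 groups numbered 0 to 2 (1 with all arrays), those past the F test over 5 groups 0 to 3 (0), the calls at neighbouring steps 0 to 2 (0) and the calls against the other 5 groups 0 to 3 (0). The count over 6 groups was also 0 with the second samples of VIII-IX and IX-XI both left out, when 19 of all genes passed, and 0 without the dimmest 30% of genes, which removed Rfx6. The count over 5 groups was 1 with arrays centred on their medians, with the dimmest 30% left out and with array quality weights, and 2 with a prior variance that follows intensity. The calls against the other 5 groups were 2 with array quality weights. Without XII-I sample 2 and II-IV sample 2, an alternative chosen after seeing the data, the count over 5 groups was 1, the calls at steps 1 and those against the other 5 groups 3. With the replicate block the count over 5 groups was 1 (Rfx6, adjusted p = 0.0430 in limma), and the other 3 counts were the same. With 2 arrays a group, adjusted p-values near 0.05 change with single arrays; causes were not tested.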
